A study of Mus musculus with 9 samples.

Results

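Promoters marked by both H3K27ac and H3K4me1 in every replicate of mouse primary oviductal muscle cells are described here. A protein-coding gene of chromosomes 1 to 19 was a member when windows reaching 1 kb either side of its protein-coding transcript starts overlapped a peak in all 3 H3K27ac and all 3 H3K4me1 replicate lists. Genes whose windows met a pooled H3K27ac peak of 10000 bp or more were left out. In all, 4870 of 20722 genes met this rule, or 23.5%. The peak calls chose the members, so the counts of marked genes and the heights of their peaks are given as a description, without a test.

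All libraries came from WT mice of 8 to 12 weeks on day 2 of pregnancy, after mating with a stud male. Oviduct pieces were digested with trypsin, collagenase and dispase, filtered, and plated for some hours before about 50000 fixed cells went into each ChIC-seq library, in which an antibody carries a protein A-MNase fusion to the mark and the enzyme releases the DNA there. Each mark had 3 replicates, and 3 IgG libraries served as controls. The cells were obtained by digestion and plating without a sort, and the labels do not say whether replicates came from separate animals, so the spread between replicates may be technical.

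H3K27ac is the acetylation of lysine 27 of histone H3, found on nucleosomes of active promoters and active enhancers. H3K4me1, the monomethylation of lysine 4, is best known from enhancers, and at active CpG island promoters it usually lies on the flanks, where the start itself carries the trimethylated form. CpG islands are stretches rich in CG dinucleotides that are mostly free of DNA methylation and hold the starts of many housekeeping and developmental genes.

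The members differed in the CpG content of the promoter and in where H3K4me1 lay around the start. To show this, the 250 bases before the RefSeq start are printed for 9 members, 5′ to 3′ on the gene's strand, from the RefSeq promoter table for GRCm38.p6. Capitals mark every CG dinucleotide. The first 3 genes have the highest peaks among members with an entry in that table, and the others were set by name for their roles in muscle, prostaglandin metabolism and chromatin remodelling. The CpG-rich promoters are those of Pnrc2 (chr4:135873847-135874096, minus strand), a coactivator of nuclear receptors that also acts in mRNA decapping, Spop (chr11:95413833-95414082, plus strand), a substrate adaptor of a cullin 3 ubiquitin ligase, Ppp2r5c (chr12:110447272-110447521, plus strand), a regulatory subunit of protein phosphatase 2A, Pbrm1 (chr14:31018888-31019137, plus strand), the polybromo subunit of the PBAF remodelling complex, and Smarca4 (chr9:21615919-21616168, plus strand), which encodes the ATPase BRG1.
Pnrc2: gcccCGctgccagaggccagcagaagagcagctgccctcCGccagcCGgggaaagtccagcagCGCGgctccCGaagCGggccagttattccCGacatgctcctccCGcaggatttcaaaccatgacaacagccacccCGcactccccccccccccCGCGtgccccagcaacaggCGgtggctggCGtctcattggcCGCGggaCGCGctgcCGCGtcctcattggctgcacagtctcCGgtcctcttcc
Spop: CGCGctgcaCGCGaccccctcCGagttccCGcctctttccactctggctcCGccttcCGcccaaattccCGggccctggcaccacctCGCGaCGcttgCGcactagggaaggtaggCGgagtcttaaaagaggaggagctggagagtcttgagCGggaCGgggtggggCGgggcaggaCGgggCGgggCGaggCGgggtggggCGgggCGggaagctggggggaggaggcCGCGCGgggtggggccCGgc
Ppp2r5c: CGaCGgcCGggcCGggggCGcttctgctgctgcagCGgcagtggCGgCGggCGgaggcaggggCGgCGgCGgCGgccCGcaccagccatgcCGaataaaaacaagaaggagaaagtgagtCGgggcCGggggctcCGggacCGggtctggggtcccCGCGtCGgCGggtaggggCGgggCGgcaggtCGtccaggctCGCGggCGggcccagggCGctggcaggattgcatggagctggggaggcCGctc
Pbrm1: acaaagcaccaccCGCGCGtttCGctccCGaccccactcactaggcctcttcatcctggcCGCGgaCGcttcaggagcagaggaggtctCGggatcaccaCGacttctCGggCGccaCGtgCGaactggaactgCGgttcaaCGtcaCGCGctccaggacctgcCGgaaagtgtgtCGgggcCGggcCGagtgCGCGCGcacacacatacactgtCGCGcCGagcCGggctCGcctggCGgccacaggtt
Smarca4: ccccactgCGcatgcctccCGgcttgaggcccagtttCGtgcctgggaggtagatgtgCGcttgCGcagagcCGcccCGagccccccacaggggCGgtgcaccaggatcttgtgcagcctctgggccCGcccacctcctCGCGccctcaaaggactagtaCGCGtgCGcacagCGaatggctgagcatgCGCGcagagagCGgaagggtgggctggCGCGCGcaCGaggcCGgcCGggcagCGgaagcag

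The 4 other promoters were not CpG-rich by the limits used here. They belong to Acta2 (chr19:34255374-34255623, minus strand), smooth muscle α-actin, Ptgs2 (chr1:150099781-150100030, plus strand), the inducible cyclooxygenase, Pla2g4a (chr1:149961291-149961540, minus strand), the cytosolic phospholipase that frees arachidonic acid, and Ptger2 (chr14:44987861-44988110, plus strand), a prostaglandin E2 receptor.
Acta2: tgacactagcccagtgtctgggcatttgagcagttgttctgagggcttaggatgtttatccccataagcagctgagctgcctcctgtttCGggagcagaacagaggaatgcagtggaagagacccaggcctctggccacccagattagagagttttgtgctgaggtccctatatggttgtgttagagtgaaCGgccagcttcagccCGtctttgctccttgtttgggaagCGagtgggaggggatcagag
Ptgs2: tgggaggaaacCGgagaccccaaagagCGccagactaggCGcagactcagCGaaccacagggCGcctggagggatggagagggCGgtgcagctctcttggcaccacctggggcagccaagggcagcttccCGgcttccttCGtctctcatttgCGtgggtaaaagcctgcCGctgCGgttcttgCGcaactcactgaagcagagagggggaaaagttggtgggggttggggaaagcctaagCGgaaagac
Pla2g4a: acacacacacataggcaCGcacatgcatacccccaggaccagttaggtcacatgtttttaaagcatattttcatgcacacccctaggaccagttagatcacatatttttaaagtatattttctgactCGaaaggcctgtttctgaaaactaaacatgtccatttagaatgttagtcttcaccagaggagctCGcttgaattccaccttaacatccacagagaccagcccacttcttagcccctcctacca
Ptger2: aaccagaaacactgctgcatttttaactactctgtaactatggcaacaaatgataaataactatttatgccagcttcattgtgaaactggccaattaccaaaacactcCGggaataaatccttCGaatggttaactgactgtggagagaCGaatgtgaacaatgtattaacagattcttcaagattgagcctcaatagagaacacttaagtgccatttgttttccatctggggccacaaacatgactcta

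The 250 bases of Pbrm1 held 31 CG dinucleotides, and all 250 bases lay in a peak in each H3K27ac list, whereas H3K4me1 peaks covered 0, 0 and 69 of them in replicates 1 to 3. Smarca4 held 25 and was covered over 250 bases in each H3K27ac list and over 0 in each H3K4me1 list. At Smarca4 the H3K4me1 peaks that made it a member lay elsewhere in the window, beside this stretch. No single window of Pbrm1, a gene with 10 starts, met all 6 lists, so its marks were collected over different starts. Spop held 27 CG dinucleotides, with 250 bases under H3K27ac in each list and 0, 0 and 250 under H3K4me1. Pnrc2 held 21, again with 250 bases under H3K27ac in each list, and with 250, 83 and 0 under H3K4me1. Among the promoters with few CG dinucleotides, Pla2g4a held 3 and was covered over all 250 bases by both marks in all 6 lists. Acta2 held 4, with 250 bases under H3K27ac in each list and 0, 250 and 250 under H3K4me1. Ptger2 held 3 and showed the opposite order, with 0, 165 and 43 bases under H3K27ac and 250, 250 and 118 under H3K4me1. Ptgs2 stood between these groups, with 13 CG dinucleotides, 250, 78 and 250 bases under H3K27ac and 0, 0 and 250 under H3K4me1. For Ppp2r5c, with 31 CG dinucleotides, the RefSeq start lay 402 bp from the GENCODE start with most lists, and the printed stretch was covered only by H3K27ac replicate 3.

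Promoters with a peak in all 3 lists of 1 mark numbered 9718 for H3K27ac, or 46.9% of the genes, and 5935 for H3K4me1, or 28.6%. All 6 lists were met by 5172 genes (25.0%), and removal of genes under long pooled peaks left the 4870 members. H3K27ac in all 3 lists with H3K4me1 in none was found at 851 genes (4.11%), and the reverse at 110 genes (0.531%). No list had a promoter peak at 6515 genes (31.4%). The 4870 members were thus most of the genes with H3K4me1 in all 3 lists, whereas H3K27ac in all 3 lists was also common outside them. A further 2577 genes without a long pooled peak lacked 1 list of the 6. The missing list was H3K4me1 replicate 3 in 1078 of them and H3K27ac replicate 2 in 77, the 2 ends of the range.

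Most members carried both marks in the same window. In 4509 members, or 92.6%, at least 1 window overlapped peaks of all 6 lists, whereas 361 (7.41%) collected the marks over different starts. Members had 16196 start sites in all, of which 9867 were double-marked, meaning that their own window met all 6 lists. All starts were double-marked in 2549 members (52.3%). Windows of 914 members (18.8%) overlapped a window of another member, so neighbouring members can share peaks. Members that met the rule through the same peaks were not counted.

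The window edge divided genes whose peaks lay at nearly the same distance. Every list had a peak over a start, not always the same one, in 981 members (20.1%), and in 317 (6.51%) the farthest list reached a start only in the last 100 bp of the window. With windows of 500 bp either side, 3011 genes met the rule, all of them members. Another 278 genes without a long pooled peak missed membership by 1 to 100 bp. Just inside, at 1000 bp, were Brwd1, a bromodomain protein, Cuedc2 and Kcnj13, a potassium channel, and just outside, at 1001 bp, were Sap30, a subunit of the Sin3 corepressor complex, Suox, the sulfite oxidase gene, and Umad1. In the other direction, pooled H3K27ac peaks of 9995 bp at Atp2a2, the sarcoplasmic reticulum calcium pump, 9988 bp at Dennd5a and 9947 bp at Pnrc2 left these genes in, and peaks of 10001 bp at March7, a ubiquitin ligase, 10010 bp at H6pd and 10022 bp at Pi15 left those genes out. The median member with a pooled H3K27ac peak had a longest such peak of 3639 bp.

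To compare where the marks lie, coverage around double-marked starts was measured in each list over starts chosen by the other 5 lists. Genes under long pooled H3K27ac peaks were left out as before, and through that pooled call an H3K27ac list still had a part in the choice. Start site coverage, the share of starts whose own base lay in a peak, was 77.8%, 83.6% and 77.5% in H3K27ac replicates 1 to 3, and 38.7%, 35.1% and 26.0% in H3K4me1 replicates 1 to 3. The groups did not overlap, with means of 79.6% ± 3.45 and 33.3% ± 6.57 (SD, n = 3 each) and an exact two-sided permutation p of 0.1, the smallest that 3 lists against 3 allow. With starts under long pooled peaks kept, an alternative chosen after seeing the data, the means were 80.2% and 33.7%, again without overlap. The p stayed at 0.1 after Benjamini-Hochberg adjustment over the 3 measures tested, and none could pass 0.05 in this design. With only peaks of a -log10 p of at least 1.3, start site coverage was 80.5% for H3K27ac and 19.3% for H3K4me1 as means of 3 lists. Within lists called against the same IgG library, H3K27ac coverage exceeded H3K4me1 coverage by 44.9, 48.5 and 51.5 percentage points in the 3 possible pairs. In all these values, a start without a peak of the measured list in its window counted as uncovered. They therefore mix where a peak lay with whether one was called. Over the 9867 double-marked starts of members, where every list had a peak in the window, start site coverage averaged 82.5% for H3K27ac and 39.1% for H3K4me1.

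H3K27ac peaks filled more of the window, with 1475 ± 76.8 of its bases covered on average against 780 ± 110 for H3K4me1 (SD, n = 3 each, exact permutation p = 0.1). Starts without a peak of the measured list entered this mean with no covered bases. Over the 9867 double-marked starts of members, the means were 1528 bases for H3K27ac and 918 for H3K4me1. The ratios and lengths below rest only on starts with a peak of the measured list itself in the window, so leaving that list out of the choice had no effect on them, and they are given as a description without a test. Relative to the flanks at 1 kb, H3K27ac coverage was higher at the start and H3K4me1 coverage was lower. Coverage of the start base over the mean coverage 1 kb upstream and 1 kb downstream was 1.31, 1.28 and 1.37 in the H3K27ac lists, and 0.851, 0.744 and 0.660 in the H3K4me1 lists, which gave means of 1.32 ± 0.0439 and 0.752 ± 0.0959 (SD, n = 3 each). The peaks themselves were longer, with a median length per list of 2233 ± 212 bp in H3K27ac lists against 1346 ± 108 bp in those of H3K4me1 (SD, n = 3 each). Both marks covered more starts 1 kb downstream than 1 kb upstream, by ratios of 1.23 ± 0.00812 in H3K27ac lists and 1.38 ± 0.0126 in H3K4me1 lists (SD, n = 3 each). The order of the marks in this ratio was the opposite with flanks and window at 500 bp, where it was 1.08 for H3K27ac and 0.937 for H3K4me1.

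**Figure D1:**
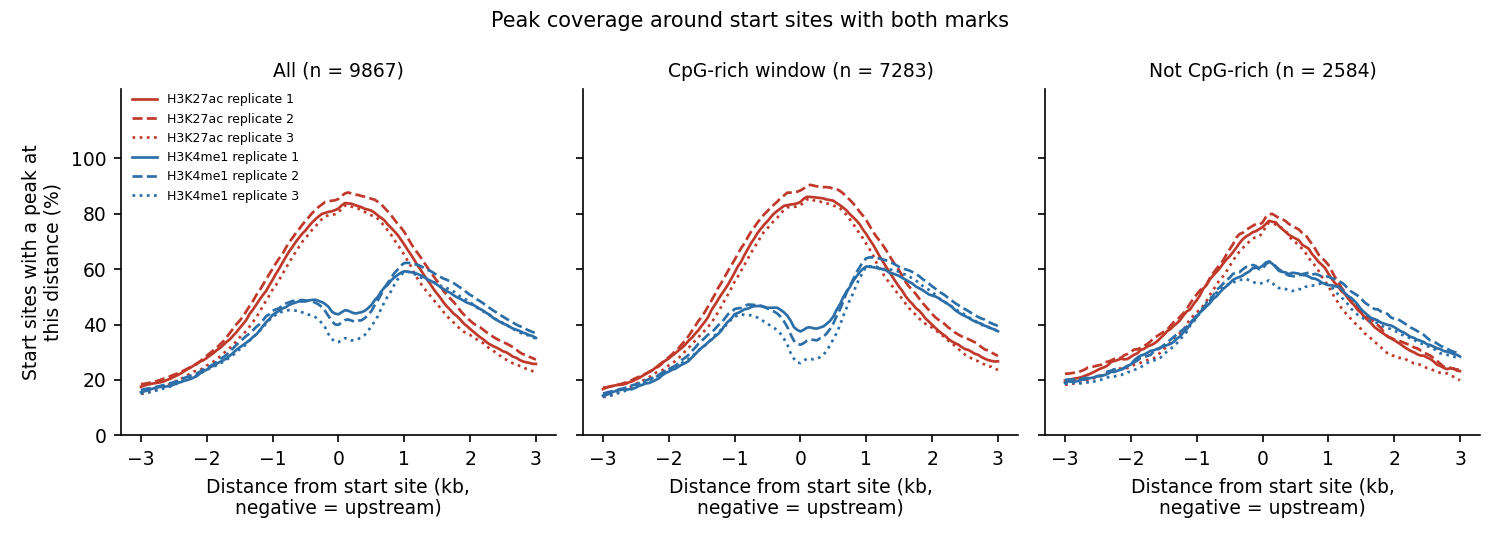
Share of double-marked start sites (y axis, percent) that lay in a peak at each distance from the start (x axis, kb, up to 3 kb either side), 1 line per replicate list, for all 9867 starts and for starts with and without a CpG-rich window. H3K27ac averaged 82.5% at the start, where H3K4me1 averaged 39.1% with a dip that was seen in CpG-rich windows and was shallow or missing in the others.

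Over the 9867 double-marked starts of members, H3K4me1 coverage was 47.0% at 500 bp upstream, 39.1% at the start and 60.2% at 1 kb downstream, as means of 3 lists. Counting a mark as present where at least 2 of its 3 lists had a peak, 51.0% of these starts had H3K27ac alone on the start base, 36.2% had both marks, 3.23% had H3K4me1 alone and 9.61% had neither. At 1 kb downstream both marks together were found at 51.7%. The start base differed with the CpG content of the window, as 59.5% of CpG-rich starts had H3K27ac alone there and 30.4% had both marks, whereas 26.9% of the other starts had H3K27ac alone and 52.4% had both.

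The position of the H3K4me1 peak differed with CpG class. A window was called CpG-rich when it held a stretch of 500 bp with a CpG observed over expected ratio of at least 0.75 and a GC content of at least 55%. The split into CpG-rich and other starts was chosen after the data were seen. For starts chosen by the other 5 lists, H3K27ac covered 81.8%, 87.8% and 81.7% of CpG-rich starts and 67.5%, 72.4% and 66.5% of the others in replicates 1 to 3. H3K4me1 went the other way, with 32.9%, 28.6% and 19.6% of CpG-rich starts and 55.8%, 54.3% and 46.0% of the others. CpG-rich minus other starts was therefore 14.96 ± 0.594 percentage points with H3K27ac but -25.0 ± 1.91 with H3K4me1 (SD, n = 3 each), without overlap and with an exact permutation p of 0.1 for the difference between the marks. With only peaks of a -log10 p of at least 1.3 the H3K27ac value was smaller, at 4.75, 10.8 and 13.4 in replicates 1 to 3, and the mean for H3K4me1 was -29.5. These values too count starts without a peak of the measured list as uncovered. Over the 9867 double-marked starts of members, the mean differences were 10.3 percentage points for H3K27ac and -26.7 for H3K4me1.

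At CpG-rich double-marked starts, 32.1% ± 5.73 of start bases lay in an H3K4me1 peak, and a further 22.1% ± 1.09 had H3K4me1 on both sides of an uncovered start. H3K4me1 lay only downstream at 25.2% ± 3.26 and only upstream at 20.6% ± 2.05 of these starts (SD over 3 lists). At starts that were not CpG-rich, 58.8% ± 3.30 were covered and 10.9% ± 0.929 were flanked on both sides. H3K27ac covered 85.2% ± 2.81 of CpG-rich starts and 74.9% ± 1.96 of the others, and flanking on both sides was found at 6.06% ± 0.535 and 5.61% ± 0.201. These positions were counted over starts that all 6 lists chose and are a description.

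**Figure D2:**
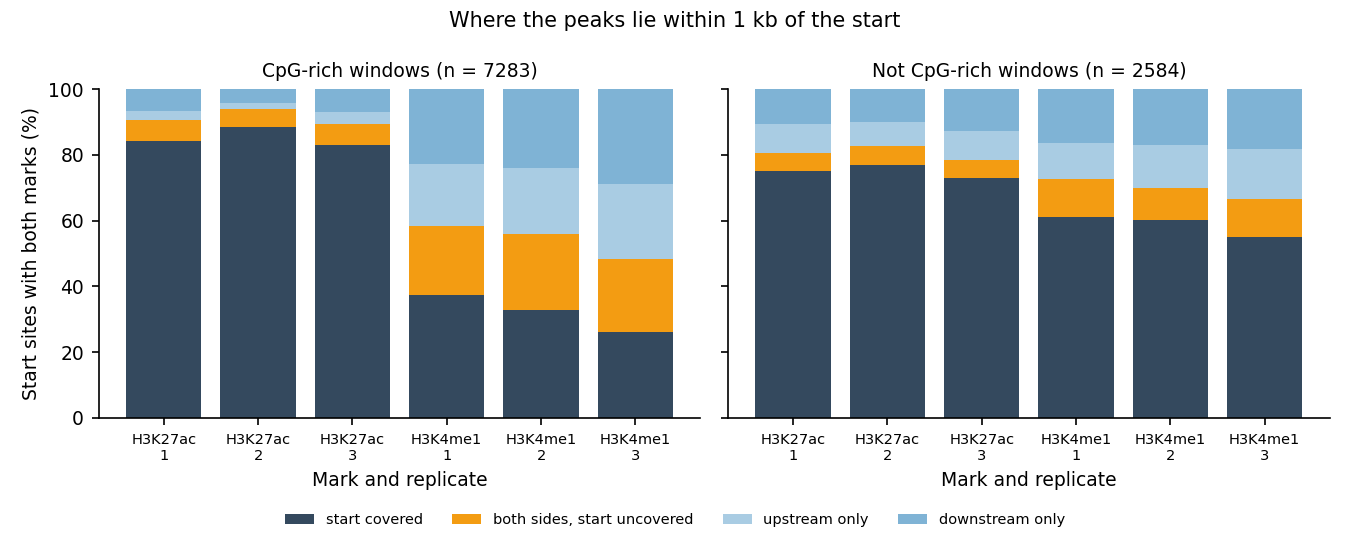
Position of each list's peaks within 1 kb of double-marked starts (y axis, percent of starts), with 1 bar per mark and replicate, for 7283 starts with a CpG-rich window and 2584 without. Dark segments are starts under a peak, and orange segments are starts with peaks on both sides and none on the start base, which made up 22.1% of CpG-rich starts for H3K4me1.

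Members were mostly CpG-rich genes. A CpG-rich window was present in 3966 members, or 81.4% (95% Wilson interval 80.3 to 82.5), and in 54.1% of all genes. At 1 start per gene, the one with most lists, the share was 73.7% for members, 84.6% with H3K27ac alone and 50.5% for all genes. Over any start, the share was 85.5% (83.0 to 87.7) with H3K27ac alone, 45.5% (36.5 to 54.8) with H3K4me1 alone, 88.5% (85.2 to 91.2) under long pooled peaks and 14.8% (14.0 to 15.7) with no promoter peak. The intervals cover counting error alone, and genes are not replicates. Read the other way, 35.4% of 11203 CpG-rich genes and 9.50% of 9519 other genes were members. The 904 members without a CpG-rich window include Acta2, Pla2g4a, Ptger2 and Hpgd, shown above or below. Members with every list over a start were CpG-rich in 75.03% of cases, and those whose farthest peak lay 751 to 1000 bp away in 85.2%. In that last group, the farthest list was an H3K4me1 list in 92.2% of members.

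Members had a median of 3 start sites against 2 over all genes, and a median gene length of 31.6 kb against 17.6 kb. Genes under long pooled peaks had similar medians, of 3 start sites and 30.8 kb. The rule gives a gene with many starts more windows to meet it. The share of members rose with the number of starts, from 14.2% of 7648 genes with 1 start and 20.3% with 2 to 52.3% of 562 genes with 8 or more. Among genes with 1 start, 24.6% of those with a CpG-rich window and 6.13% of the others were members. A divergent protein-coding neighbour, with a start on the other strand within 1000 bp upstream, was found at 14.2% of members, 19.98% of genes with H3K27ac alone and 8.72% of all genes. By chromosome, the share of members ran from 15.4% on chromosome 7 to 30.6% on chromosome 3.

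**Figure D3:**
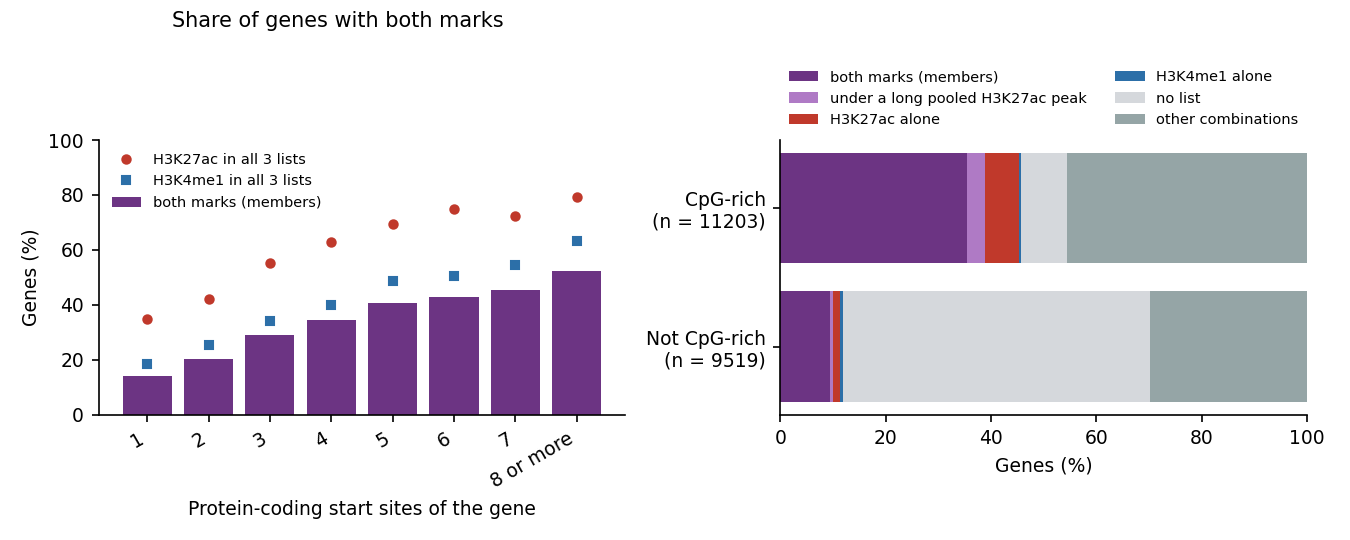
Left, the share of genes with both marks (bars), H3K27ac in all 3 lists (circles) and H3K4me1 in all 3 lists (squares) by the number of protein-coding start sites; right, the classes of CpG-rich and other genes (x axis, percent of genes). The share with both marks was 14.2% with 1 start and 52.3% with 8 or more, and 35.4% of CpG-rich and 9.50% of other genes.

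Short motifs were searched in the 300 bases around the start with most lists, 250 before and 50 after it. Matches describe letters and not bound sites, and the strings below do not contain each other. The GC box GGGCGG, on either strand, was present at 60.3% of members, 44.7% of all genes and 64.3% of genes with H3K27ac alone. The NRF1 motif was found at 10.9% of members, 6.24% of all genes and 11.2% of genes with H3K27ac alone, and the ETS string CCGGAAGT at 7.68%, 4.86% and 9.64%. A TATA box, TATAAA in the sense strand 45 to 15 bases before the start, was found at 0.739% of members, 0.823% of genes with H3K27ac alone, 2.69% of all genes and 5.39% of genes with no promoter peak. The AP-1 string TGANTCA was found at 4.95% of members and 6.83% of all genes. Within CpG-rich starts alone, the GC box was found at 70.2% of members and 69.5% of all genes, the AP-1 string at 3.73% and 3.75%, and the NRF1 motif at 13.9% and 11.4%.

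The heights of member peaks were even across replicates. The fold enrichment of a gene's highest promoter peak over IgG had a median of 2.06, 2.03 and 2.06 in H3K27ac replicates 1 to 3, and 1.80, 1.79 and 1.80 in H3K4me1 replicates 1 to 3. These values placed the median member at percentiles 93.7 to 95.7 of all peaks in the H3K27ac lists and 80.4 to 82.3 in the H3K4me1 lists. Promoter peaks of genes outside the set, with those under long pooled peaks left out, had medians of 1.94 to 1.98 for H3K27ac and 1.70 to 1.71 for H3K4me1. The highest peak was taken over all starts of a gene, and members had a median of 3 starts against 2 over all genes. Folds of the 2 marks rest on different antibodies and are not compared as levels. Many member peaks were weak, and only 79.9% to 84.0% of those of H3K27ac and 41.6% to 47.4% of those of H3K4me1 had a -log10 p of at least 1.3. That limit is close to a p of 0.05, the stricter of the cutoffs used in peak calling. Among all peaks of a list, 11.11% to 19.01% reached it. With peaks below that limit removed, 750 genes met the rule, all of them members, and 87.3% of these were CpG-rich. Across members, Spearman's rho between the folds of replicates of a mark ran from 0.315 to 0.549. Between marks it was 0.163 to 0.213 for lists with different IgG libraries and 0.238 to 0.283 for those with the same one.

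The 15 members with the highest peaks, by their lowest within-list percentile, held 8 predicted genes with a Gm number, 6 of them within 37395 bp of chromosome 9. Gm10719 had folds of 5.48, 4.70 and 3.93 for H3K27ac and 3.62, 2.91 and 3.05 for H3K4me1. These genes lie close together and share peaks, so that 6 distinct peaks stood behind the 8 genes in every list except H3K27ac replicate 3, where there were 8. Whether reads were split between near-identical copies of these genes was not tested, and their values are uncertain. Only 65 members (1.33%) had a Gm number, and 81.8% of the other 4805 were CpG-rich. Among named genes of the 15, Pnrc2 had folds of 2.50, 2.39 and 2.32 for H3K27ac and 2.31, 2.30 and 2.24 for H3K4me1. Spop had 2.60, 2.69 and 2.56 and 2.48, 2.07 and 2.08. Ppp2r5c had 2.27, 2.83 and 2.72 and 2.09, 2.12 and 2.06. Also in this group were Dcun1d1, which promotes neddylation of cullins, Bcl9l, a coactivator of β-catenin, and Lsm14a, an RNA-binding protein of processing bodies, with mean H3K27ac folds of 2.34 to 2.54.

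**Figure D4:**
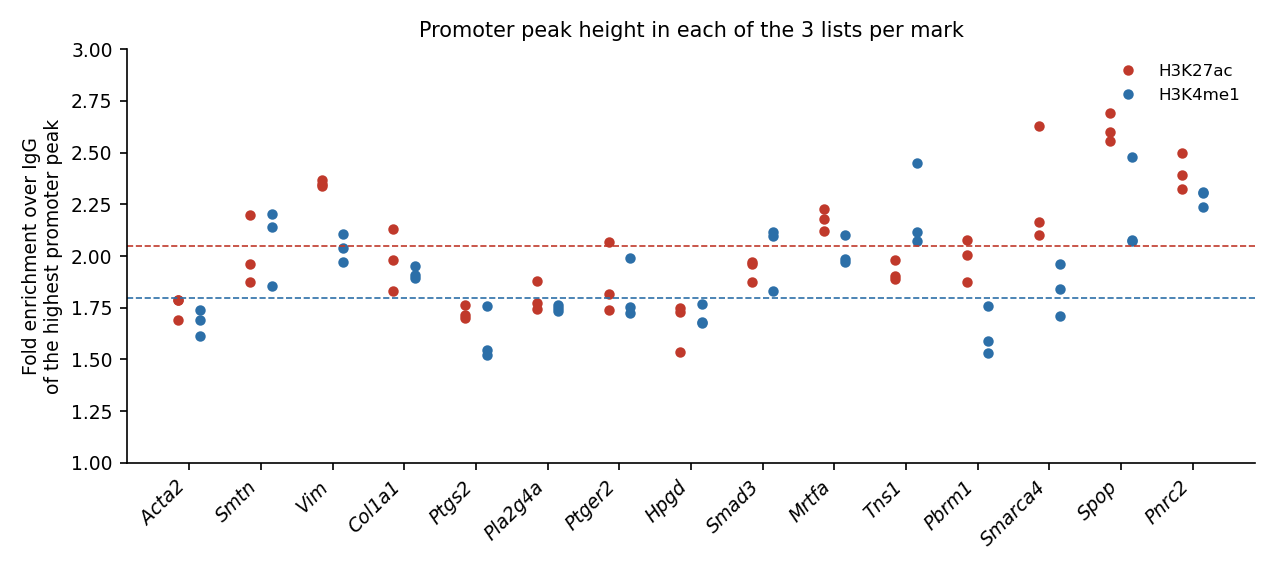
Fold enrichment over IgG (y axis) of the highest promoter peak of 15 members in each of the 3 H3K27ac and 3 H3K4me1 lists, 1 point per list, with dashed lines at the mean of the 3 list medians over all members. Spop and Pnrc2 lie above the line of each mark in all 6 lists, and Acta2, Ptgs2, Pla2g4a and Hpgd below it in all 6.

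Gene lists were read by their share of members, against 23.5% of all genes, and by where their members' peaks ranked. The rank is the mean within-list percentile of fold over the 6 lists, with a median of 86.3 over all members. Beside the member counts, 2.10% of all genes lay under long pooled peaks. The lists were not matched for CpG content, and 35.4% of CpG-rich and 9.50% of other genes were members. A CpG-rich window was present in all 45 ribosomal protein, 24 immediate-early and 20 SWI/SNF genes, and in 25 of 28 TGF-β and BMP genes. It was present in 3 of 18 stromal and 0 of 20 blood genes. Some list counts depended on which starts were used. With only the 5′-most start of each gene, 17.6% of all genes met the rule, and 9 of 28 lists and families moved by over 1.5 times. Under that setting the smooth muscle contractile, steroid signalling and circadian clock lists each had 4 members, the Hippo and MRTF list, the immediate-early list and the histone mark enzymes each 3, SWI/SNF subunits 4, integrin and adhesion genes 6 and ribosomal protein genes 5. Of 23 smooth muscle contractile genes, 8 were members, with a median rank of 87.6. The rule was met by 4 genes of the list (17.4%) with windows of 500 bp, against 14.5% of all genes. It was met by 0 with a -log10 p of at least 1.3, where 3.62% of all genes met it. With the 5′-most start the share was 17.4%, close to the 17.6% of all genes. The 8 members were Acta2, Smtn (smoothelin), Des (desmin), Synpo2, Tpm1, Srf, Pdlim7 and Cnn2. Smtn, a cytoskeletal protein of contractile smooth muscle, had folds of 1.96, 2.20 and 1.87 for H3K27ac and 2.14, 2.20 and 1.86 for H3K4me1. Acta2 had 1.79, 1.79 and 1.69 for H3K27ac and 1.69, 1.61 and 1.74 for H3K4me1, all below the member medians. Myh11, the smooth muscle myosin heavy chain, had a promoter peak in 0 H3K27ac lists and 1 H3K4me1 list, and Actg2, enteric smooth muscle actin, in 1 and 0.

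Of 18 stromal genes, 8 were members and 5 others lay under long pooled peaks. Vim, the intermediate filament of mesenchymal cells, had folds of 2.37, 2.35 and 2.34 for H3K27ac and 2.11, 2.04 and 1.97 for H3K4me1. Col1a1, a chain of fibrillar collagen, had 2.13, 1.83 and 1.98 and 1.89, 1.91 and 1.95. S100a4, a calcium-binding protein of fibroblasts, had a start under peaks in all 6 lists, while at Vim the nearest H3K4me1 peaks lay 938, 858 and 209 bp from a start. Pdgfra, Dcn and Col3a1 were among the genes under long pooled peaks.

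The labelled cell type was checked on markers set by name. All 3 H3K27ac lists had a promoter peak at 3 of 8 smooth muscle markers, a smaller share than the 46.9% of all genes, and at 6 of 6 stromal markers, 0 of 7 epithelial, 1 of 5 blood and 0 of 4 endothelial markers. In the longer smooth muscle contractile list they had one at 13 of 23 genes, a larger share than that of all genes. Both marks in all lists were found at 3 smooth muscle markers (Acta2, Des and Smtn), 5 stromal markers and 0 of the other 3 groups. Of the stromal markers, Pdgfrb, Lum and Col1a1 were members, and Dcn and Col3a1 lay under long pooled peaks. The blood marker with H3K27ac was Ptprc. In longer lists, members were 1 of 20 epithelial genes, the tight junction gene Tjp3, 0 of 20 blood genes, 0 of 18 endothelial genes and 1 of 18 liver and neuron genes, the synaptic vesicle gene Syt1. Without H3K4me1 replicate 3 the blood count was 2 and the endothelial count 1, and without H3K4me1 replicate 1 the epithelial count was 2. The share of cells of a type cannot be told apart from the level of a mark per cell in these bulk samples.

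**Figure D5:**
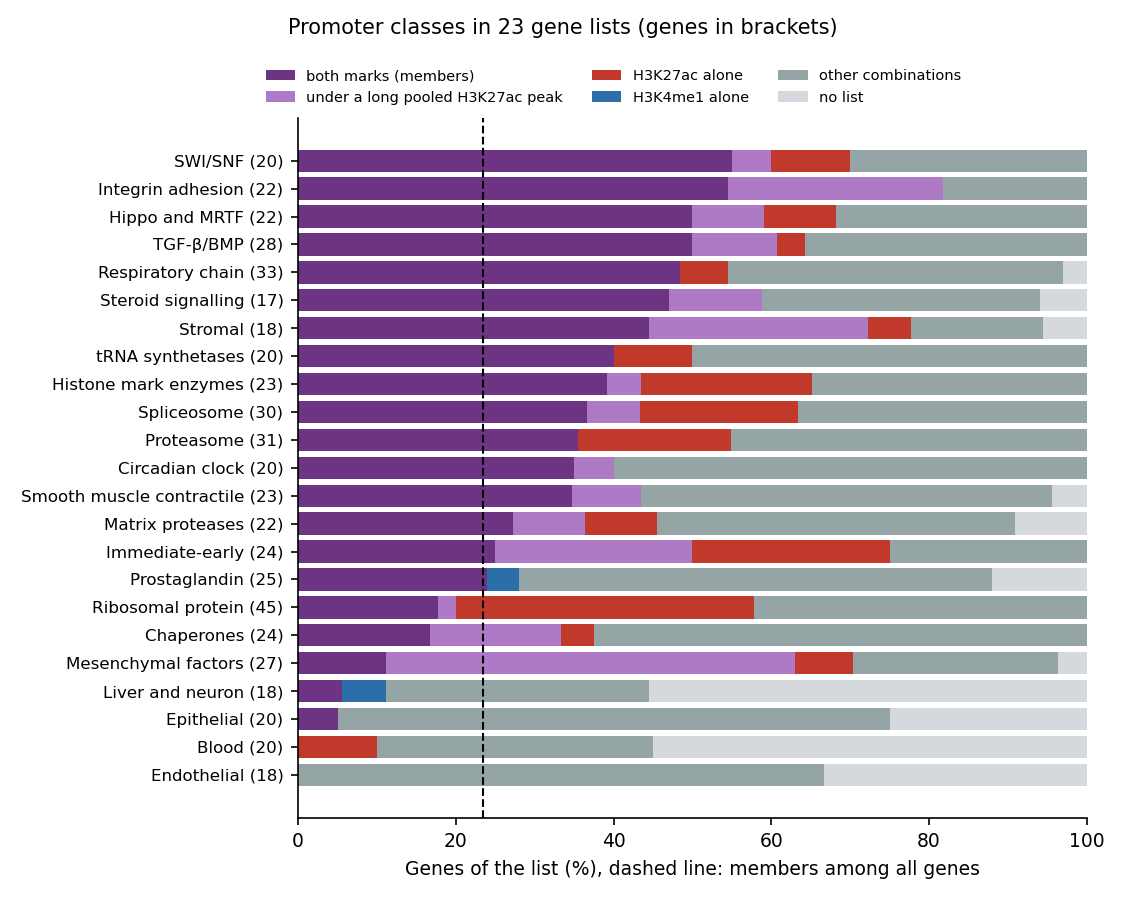
Promoter classes of the genes of 23 of the 24 lists (x axis, percent of the list, number of genes in brackets), with a dashed line at the 23.5% of all genes that were members. Members make up 11 of 20 SWI/SNF genes at the top and 0 of 18 endothelial genes at the bottom, and 14 of 27 mesenchymal factors lie under long pooled peaks.

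Prostaglandins are made from arachidonic acid and act on muscle through G protein-coupled receptors. Of 25 genes of this pathway, 6 were members, a share close to the 23.5% of all genes. They include the enzymes that start the pathway, Pla2g4a and Ptgs2, the enzyme that begins prostaglandin breakdown, Hpgd, and the receptors Ptger1 and Ptger2, with Cbr1, a carbonyl reductase. Pla2g4a had folds of 1.74, 1.77 and 1.88 for H3K27ac and 1.76, 1.75 and 1.73 for H3K4me1, with a start under peaks in all 6 lists. Ptgs2 had 1.70, 1.71 and 1.76 and 1.55, 1.52 and 1.76, and its nearest H3K4me1 peaks lay 737, 467 and 0 bp from a start. Hpgd had 1.73, 1.75 and 1.54 and 1.68, 1.67 and 1.77. Ptger2 had 2.07, 1.81 and 1.74 and 1.75, 1.73 and 1.99, and Ptger1 had 1.89, 1.65 and 1.93 and 1.88, 1.86 and 1.94. The median rank of the 6 members was 82.5. The H3K4me1 peaks of Ptgs2 ranked at within-list percentiles of 41.1, 34.8 and 75.2. With a -log10 p of at least 1.3, 0 of the 25 genes met the rule, against 3.62% of all genes.

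Of 17 genes of steroid signalling, 8 were members, and 5 had all 6 lists in 1 window. The members include the glucocorticoid receptor Nr3c1, its cochaperone Fkbp4, and the nuclear receptor cofactors Ncoa1, Ncoa2 and Ncor1. Hsd17b11, a steroid dehydrogenase, had folds of 2.61, 2.19 and 2.00 for H3K27ac and 2.08, 2.10 and 2.01 for H3K4me1. The receptors for progesterone and oestrogen, Pgr and Esr1, had both marks in all lists but were left out for long pooled H3K27ac peaks. Esr1 had 2.46, 2.55 and 2.44 for H3K27ac and 1.88, 2.00 and 1.83 for H3K4me1, and Pgr had 2.14, 2.10 and 2.05 and 1.63, 1.64 and 1.54.

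The TGF-β and BMP pathway had 14 members of 28 genes. They include the ligand Tgfb1, the receptors Tgfbr1, Tgfbr2, Tgfbr3, Bmpr1a, Bmpr1b and Acvr1, the signal transducers Smad2, Smad3, Smad4 and Smad5, and the repressor Skil. Smad3 had folds of 1.88, 1.97 and 1.96 for H3K27ac and 2.12, 2.10 and 1.83 for H3K4me1. Skil had 2.74, 2.39 and 2.34 and 1.85, 1.90 and 2.01. Smad1 and the inhibitory Smad7 lay under long pooled peaks. Of 22 genes of the Hippo pathway and the actin-regulated MRTF cofactors, 11 were members, with a median rank of 92.0, but only 3 (13.6%) met the rule with the 5′-most start, a share below the 17.6% of all genes. The share stayed above that of all genes with windows of 500 bp (36.4% against 14.5%) and with 1 shared window (45.5% against 21.8%). With a -log10 p of at least 1.3 it was 27.3% against 3.62%. The 11 members were the coactivator Yap1 and its partner Tead1, the kinases Lats1, Lats2, Stk3 and Stk4, the regulators Nf2, Amotl1 and Amotl2, and the cofactors of SRF, Mrtfa and Mrtfb. Mrtfa had 2.12, 2.18 and 2.23 and 2.10, 1.97 and 1.99. Among target genes in that list, Ccn1 had H3K27ac alone and Ccn2 lay under a long pooled peak. Ankrd1 had a promoter peak in 1 H3K27ac list and 1 H3K4me1 list, and Axl in 3 and 1.

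Of 22 integrin and focal adhesion genes, 12 were members and 6 lay under long pooled peaks. Members include the integrins Itga1, Itgb3 and Itgb5, the kinases Ptk2 and Src, and the adaptors Lims1, Parva and Tns1. Tns1, which ties integrins to actin, had folds of 1.90, 1.89 and 1.98 for H3K27ac and 2.07, 2.12 and 2.45 for H3K4me1. Ptk2, the focal adhesion kinase, had 2.35, 2.22 and 2.15 and 1.90, 1.82 and 1.95, and each list had a peak over at least 1 of its 9 starts. Of 27 mesenchymal transcription factors, only Snai2, Zeb1 and Runx1 were members, and 14 lay under long pooled peaks, among them Tcf21, Nr2f2, Hoxa10, Emx2 and Wt1. With genes under long pooled peaks kept, 8 of the 27 (29.6%) met the rule, against 25.0% of all genes.

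Of 20 SWI/SNF subunits, 11 were members. With windows of 500 bp, 5 met the rule, or 25.0% against 14.5% of all genes. With only the 5′-most start, 4 of the 20 met it, a share slightly above the 17.6% of all genes. The 11 members include both ATPases, Smarca4 and Smarca2, the core subunits Smarcb1, Smarcc1 and Smarce1, and the PBAF subunits Pbrm1, Brd7 and Phf10. Pbrm1 had folds of 2.01, 1.88 and 2.08 for H3K27ac and 1.59, 1.53 and 1.76 for H3K4me1, and its nearest H3K4me1 peaks lay 480, 36 and 182 bp from a start. Smarca4 had 2.10, 2.63 and 2.16 and 1.84, 1.96 and 1.71, with H3K4me1 382, 348 and 950 bp from a start. Smarca2 had 2.15, 2.19 and 2.21 and 1.87, 1.84 and 1.99, with a start under peaks in all 6 lists. Arid2 lay under a long pooled peak, and Smarcc2 and Brd9 had H3K27ac alone. Of 23 histone mark enzymes and readers, 9 were members, among them the methyltransferases Kmt2c and Setd1a and the demethylase Kdm1a. The methyltransferases Kmt2a, Kmt2b and Kmt2d had H3K27ac alone.

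Housekeeping lists are given by their counts, and differences between them were not tested. Of 45 ribosomal protein genes, 8 were members and 17 had H3K27ac alone, or 37.8% against 4.11% of all genes. Of 33 respiratory chain genes, 16 were members and 2 had H3K27ac alone. Members made up 8 of 20 tRNA synthetases, 11 of 30 spliceosome genes and 11 of 31 proteasome genes, of which 2, 6 and 6 others had H3K27ac alone. Among ribosomal members, Rpl3 had folds of 2.72, 2.20 and 2.85 for H3K27ac and 1.81, 2.20 and 1.84 for H3K4me1, and each list had a peak over at least 1 of its 3 starts. Rpl10a had 2.41, 2.20 and 2.55 and 1.98, 1.81 and 2.36, and its H3K4me1 peaks lay 756, 760 and 344 bp from a start. The ribosomal count rested on single lists, at 15 (33.3%) without H3K4me1 replicate 3 and 13 (28.9%) without H3K4me1 replicate 2. These shares lay above the 28.7% and 26.3% of all genes in the same settings. With all lists the ribosomal share was 17.8%, below the 23.5% of all genes. It also rested on the window, since with windows of 2 kb the rule was met by 21 ribosomal protein genes (46.7%), above the 31.5% of all genes with such windows, and by 58.1% to 66.7% of the 4 other lists. Ribosomal protein genes have many processed pseudogenes, and a share of reads placed between such copies was not tested.

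Of 24 immediate-early genes, 6 were members, 6 had H3K27ac alone and 6 lay under long pooled peaks. The members were Fosl1, Egr2, Klf2, Mafk, Nr4a1 and Btg2, and those with H3K27ac alone were Fosb, Jun, Atf3, Ier3, Klf4 and Myc. Nr4a1, an orphan nuclear receptor, had folds of 2.47, 2.27 and 2.23 for H3K27ac and 2.05, 1.93 and 1.88 for H3K4me1. Of 24 chaperones, 4 (16.7%) were members, a share below the 23.5% of all genes. Without H3K4me1 replicate 3 the rule was met by 13 (54.2%), above the 28.7% of all genes. With windows of 2 kb it was met by 15 (62.5%), above the 31.5% of all genes. Hspa1b, an inducible heat shock protein, was a member with 2.55, 2.81 and 2.67 and 2.08, 1.89 and 1.98. Its near-identical neighbour Hspa1a was not, and reads of the pair cannot be told apart with certainty.

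Members among 22 matrix proteases and inhibitors were 6, including Timp3 and Plat, and among 20 circadian clock genes 7, including Per2 and Tef. Timp3, an inhibitor of metalloproteinases, had folds of 1.85, 2.00 and 2.07 for H3K27ac and 1.97, 1.88 and 1.87 for H3K4me1. Per2, a repressor in the clock, had 2.15, 2.38 and 2.14 and 2.06, 2.15 and 1.92. Families taken by symbol after the data were seen gave 1 member of 1127 Olfr genes (2 or 3 without any 1 H3K27ac list and 2 without H3K4me1 replicate 1), 1 of 329 Vmn genes and 152 of 388 Zfp genes. Of 67 genes named Hist, 22 were members and 24 lay under long pooled peaks.

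How firmly a promoter was held by the rule was described by leaving each list out in turn. Of genes that met the rule in the other 5 lists, 95.8%, 98.4% and 96.9% had a peak in H3K27ac replicates 1 to 3, and 91.0%, 89.5% and 81.9% in H3K4me1 replicates 1 to 3. Over all genes these lists had promoter peaks at 56.4%, 55.2% and 54.1% and at 46.5%, 42.9% and 42.6%. Genes with none of the other lists had a peak in the list left out in 1.35% to 7.29% of cases. H3K4me1 replicate 3 recovered the fewest, and it was called on 64063996 fragments, a depth between the 41891318 of replicate 1 and the 78891920 of replicate 2. The H3K27ac lists were called on 40551842 to 42040809 fragments, and the IgG libraries on 3110985 to 3713369. H3K27ac replicate 2 and H3K4me1 replicates 1 and 2 shared an IgG library, as did replicate 3 of both marks, and the part of the shared controls in the agreement of lists was not tested beyond the values given with other controls.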

How the data were processed

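ChIC-seq reads of WT mouse primary oviductal muscle cells were processed by the authors with cutadapt, Bowtie2 and MACS2 on GRCm38.p5, per the submitters' processing notes. The deposited peak lists come from MACS 2.2.7.1, run in broad mode per the file headers with p cutoffs of 0.05 and 0.1, for each replicate against 1 IgG library and for pooled replicates of each mark. The authors' columns used here are the pileup, a coverage signal at the scaled depth, the -log10 p-value and the fold enrichment ratio over IgG. The pooled lists gave only peak positions and lengths. Treatment libraries held 11.3 to 25.2 times as many fragments as their IgG library, and the number of fragments limits how weak a peak can be called.

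Starts of protein-coding transcripts came from GENCODE M21, and all peak ends fitted the GRCm38.p6 chromosomes. Sequence was read from that genome and from the RefSeq promoter table, in which 3800 of 4864 member symbols matched. Groups came from the labels. Start coverage, its CpG split and covered length were compared between marks by exact two-sided permutation tests with 1 value per list, and 95% Wilson intervals cover counting error alone. Genes were named by rule: the 15 members with the highest lowest-of-6 fold percentile, up to 3 members of each of 24 gene lists by mean percentile, 9 genes of interest, and the 3 members and 3 other genes nearest each limit of the rule. Other list members are named to show what a count holds, which was done after their values were seen. Of these, 1 gene list and several genes are not reported here. Members, lists and tests were chosen with earlier results of these data known. Alternatives were windows of 500 bp and 2 kb, 1 shared window, the 5′-most start, overlaps of 200 bp, peaks with a -log10 p of at least 1.3 or 5 times the mean coverage, long pooled peaks kept, looser CpG limits, a replicate block and leaving out each list. The CpG split of starts, the split by number of starts, pairs with the same IgG library, families by symbol and start measures with long pooled peaks kept were added after seeing the data. Interval functions were tested on simulated data. Python 3.11.15, numpy 2.4.6, pandas 2.3.3, scipy 1.17.1 and pyfaidx 0.9.0.4 were used.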

Additional observations from a re-analysis of the deposited data

Results flagged for a closer look

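Start coverage differed with the CpG class of double-marked starts, in opposite directions for the 2 marks. Start coverage at CpG-rich minus other starts was 14.96 percentage points for H3K27ac, positive in 3 of 3 lists, and -25.0 for H3K4me1, negative in 3 of 3 lists. With only peaks of a -log10 p of at least 1.3, the means were 9.66 and -29.5. The difference between the marks had an exact permutation p of 0.1, the smallest possible, with starts chosen by the other 5 lists and genes under long pooled H3K27ac peaks left out. With those starts kept, the means were 14.7 and -25.7. Over the double-marked starts of members, where every list had a peak in the window, they were 10.3 and -26.7. The split was chosen after the data were seen.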

How the results depend on the processing

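The number of members was most sensitive to the window and to weak peaks, at 3011 with windows of 500 bp, 6530 with windows of 2 kb and 750 with a -log10 p of at least 1.3. It was 3656 with the 5′-most start and 4947 to 5948 without 1 list. The CpG-rich share of members was 79.2% with windows of 500 bp, 80.1% with the 5′-most start, 87.3% with a -log10 p of at least 1.3 and 91.2% with looser CpG limits (63.7% of all genes), and 80.4% to 82.2% without 1 list. The downstream to upstream ratio was reversed with windows of 500 bp, at a difference of 0.146 between H3K27ac and H3K4me1, and lay between -0.164 and -0.130 without 1 list. Without 1 list, the difference between the marks was 42.7 to 53.1 percentage points for start coverage, 0.540 to 0.649 for the start to flank ratio, 622 to 817 bp for covered length and 742 to 959 bp for peak width, and the exact permutation p of start coverage and covered length was no lower than 0.2. Mean recovery in the list left out was 81.4% for H3K4me1 with windows of 500 bp, and 94.998% for H3K27ac and 79.0% for H3K4me1 when only lists called against another IgG library chose the genes, which also cut the lists used from 5 to 3 or 4 for all but H3K27ac replicate 1. Of 28 lists and families, the count moved by over 1.5 times in 26 with a -log10 p of at least 1.3, in 16 with windows of 500 bp, in 10 with windows of 2 kb and in 9 with the 5′-most start. It moved as far in 4 with long pooled peaks kept, in 3 with overlaps of 200 bp and in 1 to 4 without 1 list. It did so in 1 (steroid signalling) with 1 shared window and in 0 when peaks under 5 times the mean coverage were dropped. The cause of these moves was not tested.

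The labels do not say whether replicate numbers pair the samples. Same-numbered lists of the 2 marks correlated at -0.00308, 0.321 and 0.415 in their deviations. The higher values, of replicates 2 and 3, came from lists that also shared an IgG library. Pairing and a shared control therefore cannot be told apart. With a replicate block each difference was the same, 46.3 percentage points for start coverage, 0.566 for the start to flank ratio, -0.147 for the downstream to upstream ratio, 694 bp for covered length and 887 bp for peak width, and exact permutation within the 3 pairs gave p = 0.25, its lower limit, for start coverage and covered length. No alternative changed the direction of the other 4 measures.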
